A study of Bos taurus with 12 samples.

Results

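Caruncular endometrium of 4 pregnant heifers was compared with that of 4 cyclic heifers by RNA-Seq, gene by gene and heifer by heifer. The genes described were those with a mean of 10 or more raw counts over the 8 libraries. This rule does not use the difference between the groups, but a gene high in only 1 group can meet it. ENSBTAG00000050371 met it with 4 counts in pregnant and 76 in cyclic heifers, and ENSBTAG00000009617 with 76 and 6. Large fold changes of such low-count genes are a description. The rule kept 1357 of the 27270 genes in the count table (4.98%), and these are called expressed genes from here on. At least 1 read was counted for 14853 of the 27270 genes in these 8 libraries. The rule cuts through many genes of similar abundance, with 114 genes averaging from 9 to just under 10 counts and 94 averaging from 10 to just under 11. ENSBTAG00000015103, ENSBTAG00000026467 and ENSBTAG00000051279 lay just outside it with a mean of 9.875 counts, and ENSBTAG00000010012, ENSBTAG00000010082 and ENSBTAG00000013772 just inside with a mean of 10 counts.

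All animals were Angus heifers of 2 to 3 years kept on pasture, and the estrous cycles of all of them had been synchronized with prostaglandin F2α. The pregnant heifers (numbers 73, 76, 78 and 79) had been bred, and their tissue was taken between Day 15 and Day 17 of gestation with a conceptus present. The cyclic heifers (numbers 3, 4, 5 and 6) were not bred, and the day of the cycle on which they were sampled is not given in the sources used here. Another group of 4 bred heifers without a conceptus (numbers 72, 74, 75 and 77) entered the statistical fit and is otherwise described only where it bears on a result. Each library came from a different heifer, from which several caruncles were collected. The spread between libraries is thus a spread between animals together with counting error, which weighs more at genes with few counts. Breeding and the presence of a conceptus both separate the groups, as does the separate run of numbers that the cyclic heifers carry, and these cannot be told apart in this comparison.

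Caruncles are the aglandular areas of the ruminant uterine wall to which the placenta attaches. In cattle the elongating conceptus secretes interferon tau, the signal by which pregnancy is recognized. This signal reaches the endometrium, prevents luteolysis and so maintains the corpus luteum and its progesterone, and it induces interferon-stimulated genes in the uterine wall. The count table names genes by Ensembl identifier, and the reference used here paired 0 of these identifiers with a gene symbol. No role is therefore given for any gene below, interferon-stimulated genes could not be picked out, and the tissue label could not be checked against marker genes of epithelium, stroma, leukocytes or trophoblast. In tissue RNA of this kind, fewer cells of a type and less RNA per cell cannot be told apart.

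The deposited gene counts of a library summed to 95618 to 152234 in pregnant heifers and 111177 to 123761 in cyclic heifers. These totals are low for RNA-Seq, and the cause is not known. The study's paper reports far larger average numbers of raw reads in both groups, with most retained reads uniquely mapped. The deposited counts thus hold only a small part of those reads, and the reason was not tested. Genes with a count numbered 7485 to 9069 in pregnant and 8097 to 8935 in cyclic heifers. The expressed genes held 81.5% to 84.4% of the counts in pregnant and 81.3% to 83.6% in cyclic heifers. In two-sided exact permutation tests of 4 against 4 heifers, library totals (p = 0.571), genes with a count (p = 0.857) and the share of counts in expressed genes (p = 0.629) did not pass (adjusted p = 0.857 for each). Values of single genes are given as CPM after TMM normalization, that is, counts scaled to a common effective library size, on which scale 1 count was worth 7.32 to 14.98 CPM in pregnant heifers and 9.58 to 10.7 CPM in cyclic heifers. Levels are compared between heifers for the same gene, since the values are not divided by gene length. Of the expressed genes, 1337 passed the filter on low counts and were tested with edgeR, among 1606 genes tested in all.

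A pair of heifers stood apart from their own group. Over log2 CPM of the 1337 genes, pregnant heifer 76 correlated better with the cyclic heifers (mean r = 0.857) than with the other pregnant heifers (mean r = 0.818). For the other 3 pregnant heifers the mean r with their own group was 0.838 to 0.859, against 0.744 to 0.790 with the cyclic group. Cyclic heifer 5 had a mean r of 0.822 with its own group, below the 0.880 to 0.893 of the other cyclic heifers, and 0.804 with the pregnant group. These correlations are across genes, which are not independent replicates.

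At most expressed genes the difference between pregnant and cyclic heifers was small beside the spread between libraries. The median log2 fold change (pregnant over cyclic) was 0.01, the same as over all genes tested, and 685 of the 1337 genes (51.2%) had a positive value, against 50.4% of all genes tested. The 5th and 95th percentiles were -1.18 and 1.21, and the extremes were -5.43 and 6.10. TMM normalization centers the fold changes near 0, so the median and the share of positive values do not measure the size of differences. With library totals alone the median was -0.05. Only 2 expressed genes (0.150%) passed an FDR under 0.05 with a fold change above 2 in edgeR, both lower in pregnant heifers, where 3 of all genes tested passed (0.187%), 1 higher (0.0623%) and 2 lower (0.125%). No expressed gene was called higher in pregnant heifers in this edgeR fit (0 of 1337), although 118 of them had an unadjusted p under 0.05. Limma-voom also called 0 of 1337 higher (0 of all 1606 genes tested), and edgeR on the 8 libraries alone 3 of 1269 (3 of 1317). DESeq2 on the same 12 libraries called 14 of 1357 higher (17 of 15896), and edgeR without the filter 47 of 1357 (87 of 15896). The sets of genes tested differ, so these counts are not directly comparable. The other gene called by edgeR, ENSBTAG00000005338, was higher in pregnant heifers but averaged 9 counts and so fell outside the rule.

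**Figure D1:**
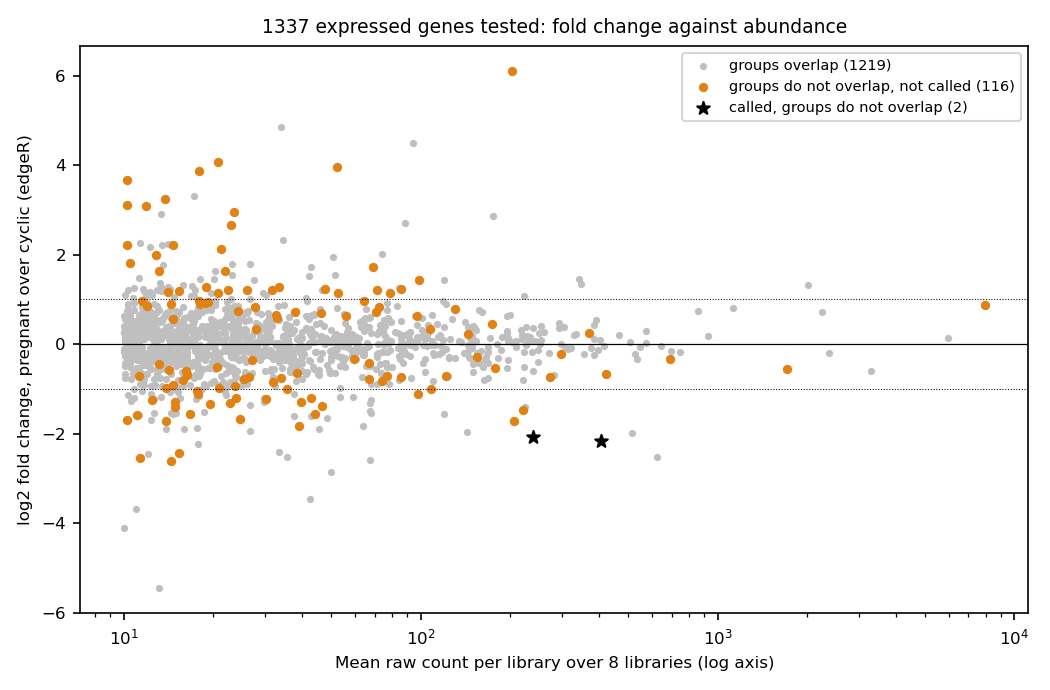
Log2 fold change of pregnant over cyclic heifers (vertical axis) against the mean raw count over the 8 libraries on a log axis (horizontal axis) for the 1337 expressed genes tested, with 1 point a gene. Grey points have overlapping groups, orange points do not, stars are called genes, and dotted lines mark a 2-fold change. The points scatter about 0 (median 0.01), where TMM normalization centers them. The scatter is widest among genes of low abundance, and the 2 called genes lie below 0 at -2.16 and -2.08.

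At an unadjusted p under 0.05, 225 expressed genes (16.8%) had a difference between pregnant and cyclic animals, and the share over all genes tested was 16.0%. Of these, 118 were higher and 107 lower in the pregnant animals, and over all genes tested 7.97% were higher and 8.03% lower. The 4 pregnant values all lay above or all below the 4 cyclic values at 118 expressed genes (8.83%) and at 8.22% of all genes tested. The pregnant values were the higher ones at 58 of the 118 (4.34%, against 4.17% of all genes tested) and the lower ones at 60 (4.49%, against 4.05%). Both shares were close to those of all genes tested, so they describe the comparison rather than the expressed genes in particular. Precision followed abundance. The median standard error of the log2 fold change was 0.44 among 565 genes averaging 10 to 20 counts and 0.27 among 181 genes averaging 100 or more. The 95% interval of the fold change stayed within 2-fold in either direction at 446 genes (33.4%), which was 17.3% of the genes with 10 to 20 counts and 59.7% of those with 100 or more. At the remaining genes the interval reached beyond 2-fold. Across genes, the coefficient of variation between heifers had a median of 0.329 in pregnant and 0.289 in cyclic heifers. It was larger in pregnant heifers at 764 genes (57.1%), and it includes counting error. Its median was 0.388 in pregnant and 0.357 in cyclic heifers at 10 to 20 counts, and 0.224 and 0.195 at 100 or more.

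ENSBTAG00000002689 and ENSBTAG00000030648 were the 2 expressed genes called, and both were lower in pregnant than in cyclic heifers. Neither low level was particular to pregnant heifers. In bred heifers 72, 74, 75 and 77, without a conceptus, ENSBTAG00000002689 had 2000, 1625, 2586 and 2625 CPM. ENSBTAG00000030648 had 577, 542, 797 and 917 CPM in them. At both genes these values lay below every cyclic heifer. ENSBTAG00000002689 had 933, 2343, 1637 and 809 CPM in pregnant heifers 73, 76, 78 and 79, against 7561, 8995, 3605 and 5452 CPM in cyclic heifers 3, 4, 5 and 6. The highest pregnant value, from heifer 76, lay below the lowest cyclic value, from heifer 5, and these values rest on 642 counts in pregnant and 2599 in cyclic heifers. The mean was 1431 ± 710 CPM in pregnant and 6403 ± 2366 CPM in cyclic heifers (SD, n = 4 each), and the log2 fold change was -2.16 with a standard error of 0.37 (FDR 0.0331, edgeR). ENSBTAG00000030648 had 744, 1413, 659 and 734 CPM in pregnant heifers 73, 76, 78 and 79, against 6133, 2232, 2098 and 4607 CPM in cyclic heifers 3, 4, 5 and 6. Again heifer 76 was the highest of the pregnant and heifer 5 the lowest of the cyclic animals, without overlap. The mean was 888 ± 353 CPM in pregnant and 3767 ± 1953 CPM in cyclic heifers (SD, n = 4 each), from 391 and 1518 counts, and the log2 fold change was -2.08 with a standard error of 0.38 (FDR 0.0418, edgeR).

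The direction of these 2 genes was the same under each of 22 alternatives, while the calls were not. Their groups did not overlap, so leaving out 1 heifer could not reverse the direction, and its constancy is no test. The log2 fold change of ENSBTAG00000002689 ranged from -2.51 to -1.95 and that of ENSBTAG00000030648 from -2.41 to -1.74. The first was called in 12 and the second in 11 of the 22, with largest FDRs of 0.157 and 0.181, both from edgeR with 1 heifer left out. Without pregnant heifer 73, 78 or 79, cyclic heifer 3, 4 or 6, or non-pregnant heifer 72 or 75, 0 expressed genes were called. The number was 6 (3 higher) when pregnant heifer 76 was left out, among 7 of all 1606 genes tested, and 7 (0 higher) when cyclic heifer 5 was, among 8. It was 34 (21 higher), among 37, when the fit omitted non-pregnant heifer 74, which enters this comparison only through the normalization and the shared spread. Another tool also moved the count, over a larger set of genes tested. DESeq2 on the same 12 libraries called 35 of 1357 expressed genes (14 higher, 21 lower), among 38 of all 15896 genes tested. On the 8 libraries compared DESeq2 called 63 of 1357 (34 higher, 29 lower), among 75 of 14853.

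The next genes were chosen by a rule: among expressed genes whose groups did not overlap, the 12 with the largest and the 12 with the smallest log2 fold change. Beside the 2 called genes, 22 of these 24 missed the FDR of 0.05 in edgeR, so their values are a description. DESeq2 on 12 libraries called 15 of the 24 (8 higher, 7 lower in pregnant heifers), and edgeR without non-pregnant heifer 74 called 13 (7 higher, 6 lower). Leaving out heifer 74 was added after seeing the data. The 24 genes were picked from the same counts for separate groups and large fold changes, so these calls are not independent support.

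**Figure D2:**
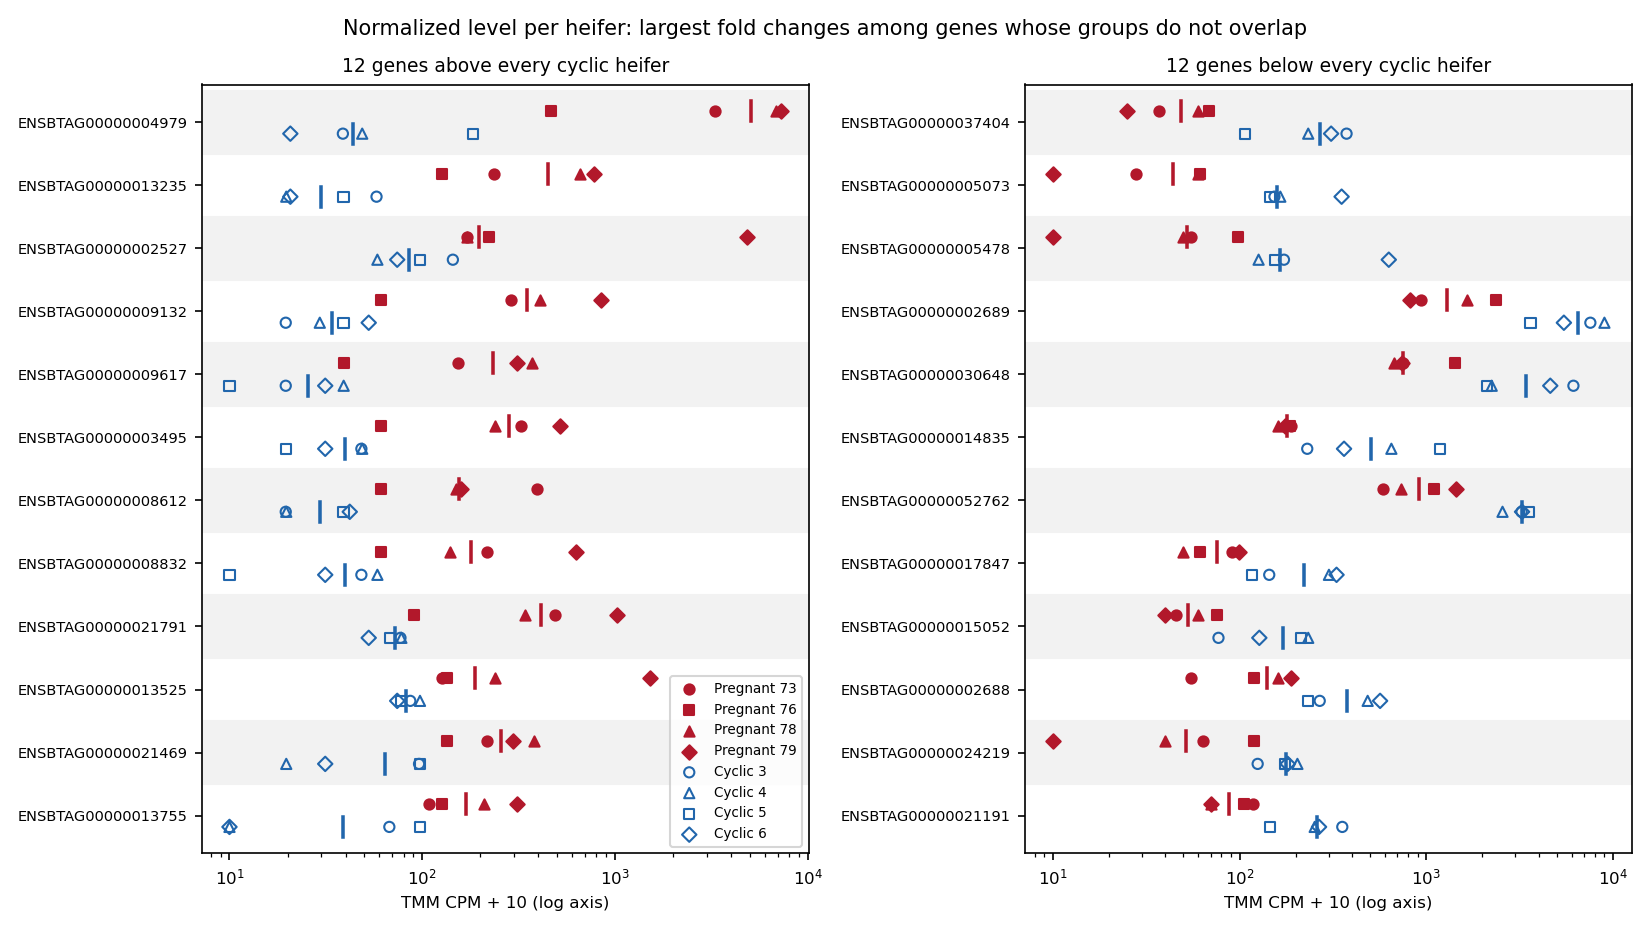
TMM-normalized CPM plus 10 on a log axis for each heifer, at the 12 genes furthest above (left panel) and the 12 furthest below (right panel) the cyclic heifers among genes whose groups do not overlap. Filled points are 4 pregnant and hollow points 4 cyclic heifers, and a vertical bar marks the median of each group. At ENSBTAG00000004979 the pregnant heifers span 454 to 7249 CPM, while at ENSBTAG00000052762 the cyclic heifers keep to 2552 to 3547 CPM.

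On the lower side, ENSBTAG00000037404 had 26.9, 58.6, 49.9 and 14.98 CPM in pregnant heifers 73, 76, 78 and 79, against 364, 223, 96.7 and 299 CPM in cyclic heifers 3, 4, 5 and 6. Its log2 fold change of -2.60 (SE 0.62, edgeR FDR 0.110) was the furthest below 0 of the 12, with heifers 76 and 5 closest to the other group. ENSBTAG00000005073 had 17.9, 51.3, 49.9 and 0 CPM in pregnant heifers, against 144, 155, 135 and 342 CPM in cyclic heifers, in the same heifer order (log2 fold change -2.53, SE 0.67, edgeR FDR 0.110). Its cyclic values lay close together except for that of heifer 6, which was far higher. ENSBTAG00000005478 was similar, with 44.8, 87.9, 39.9 and 0 CPM in pregnant heifers, against 163, 116, 145 and 620.0 CPM in cyclic heifers (log2 fold change -2.42, SE 1.04, edgeR FDR 0.278). Without cyclic heifer 6 the log2 fold change of ENSBTAG00000005478 was -1.55.

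ENSBTAG00000052762 was the most abundant of the lower genes that missed the threshold, and its cyclic values were the most alike. It had 574, 1091, 719 and 1438 CPM in pregnant heifers 73, 76, 78 and 79, against 3230, 2552, 3547 and 3250 CPM in cyclic heifers 3, 4, 5 and 6 (log2 fold change -1.72, SE 0.45, edgeR FDR 0.110). Here heifer 79, not 76, was the highest pregnant animal, and heifer 5 was the highest cyclic animal. ENSBTAG00000014835 showed the reverse arrangement of spread, with 179, 176, 150 and 165 CPM in pregnant heifers, against 220, 640, 1170 and 353 CPM in cyclic heifers (log2 fold change -1.82, SE 0.47, edgeR FDR 0.110). The pregnant heifers were nearly equal, the cyclic ones were spread over a wide range, and without cyclic heifer 5 the log2 fold change of ENSBTAG00000014835 was -1.27. ENSBTAG00000002688 had 44.8, 110, 150 and 180 CPM in pregnant heifers, against 259, 475, 222 and 556 CPM in cyclic heifers (log2 fold change -1.67, SE 0.41, edgeR FDR 0.110).

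The other 4 lower genes had log2 fold changes from -1.71 to -1.56 and FDRs from 0.122 to 0.408 in edgeR. ENSBTAG00000017847 had 39.9 to 89.9 CPM in pregnant and 106 to 321 CPM in cyclic heifers. ENSBTAG00000015052 had 30.0 to 65.9 CPM in pregnant and 67.1 to 223 CPM in cyclic heifers. The gap between the groups was narrow at both of these genes. ENSBTAG00000021191 had 59.9 to 108 CPM in pregnant and 135 to 345 CPM in cyclic heifers. ENSBTAG00000024219 had 0 CPM in pregnant heifer 79 and 110 CPM in heifer 76, against 115 to 194 CPM in cyclic heifers, so its groups were separated by less than 1 count. Of the 12 lower genes, heifer 76 was the highest pregnant animal at 7 and heifer 79 the lowest at 6.

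On the higher side, ENSBTAG00000004979 had the largest fold change of any expressed gene tested. It had 3301, 454, 6788 and 7249 CPM in pregnant heifers 73, 76, 78 and 79, against 28.7, 38.8, 174 and 10.7 CPM in cyclic heifers 3, 4, 5 and 6. Every pregnant heifer was above every cyclic heifer, heifers 76 and 5 were again those closest to the other group, and the 4 pregnant libraries held 1594 counts, against 26 in the cyclic libraries. The log2 fold change was 6.10 with a standard error of 1.63, and the FDR in edgeR was 0.112. It was called in 6 of 22 alternatives, among them DESeq2 on 12 libraries (FDR 0.00577), and the log2 fold change ranged from 5.76 to 7.32. Among the bred heifers without a conceptus, this gene was at 66.9, 9521, 381 and 46.9 CPM in heifers 72, 74, 75 and 77, so that heifer 74 exceeded every pregnant animal.

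At 8 further higher genes heifer 76 was the lowest pregnant animal, often well below the others. ENSBTAG00000013235 had 224, 117, 649 and 764 CPM in pregnant heifers 73, 76, 78 and 79, against 47.9, 9.70, 29.0 and 10.7 CPM in cyclic heifers 3, 4, 5 and 6 (log2 fold change 4.06, SE 1.17, edgeR FDR 0.155). ENSBTAG00000009132 had 278, 51.3, 399 and 839 CPM in pregnant heifers, against 9.58, 19.4, 29.0 and 42.8 CPM in cyclic heifers (log2 fold change 3.87, SE 0.92, edgeR FDR 0.110). At both genes the 3 other pregnant heifers were well above heifer 76, which at ENSBTAG00000009132 was only just clear of the highest cyclic animal. ENSBTAG00000009617 had 144, 29.3, 359 and 300 CPM in pregnant heifers, against 9.58, 29.1, 0 and 21.4 CPM in cyclic heifers (log2 fold change 3.67, SE 1.16, edgeR FDR 0.170). Here heifer 76 and cyclic heifer 4 were level within a fraction of 1 count. ENSBTAG00000003495 had 314, 51.3, 230 and 509 CPM in pregnant heifers, against 38.3, 38.8, 9.67 and 21.4 CPM in cyclic heifers (log2 fold change 3.25, SE 0.85, edgeR FDR 0.110).

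ENSBTAG00000008612 had 386, 51.3, 140 and 150 CPM in pregnant heifers 73, 76, 78 and 79, against 9.58, 9.70, 29.0 and 32.1 CPM in cyclic heifers 3, 4, 5 and 6 (log2 fold change 3.12, SE 0.85, edgeR FDR 0.122). Heifer 73, not 79, was the highest pregnant animal at this gene. ENSBTAG00000008832 had 206, 51.3, 130 and 614 CPM in pregnant heifers, against 38.3, 48.5, 0 and 21.4 CPM in cyclic heifers (log2 fold change 3.09, SE 0.93, edgeR FDR 0.166). ENSBTAG00000021791 had 475, 80.6, 329 and 1018 CPM in pregnant heifers, against 67.1, 67.9, 58.0 and 42.8 CPM in cyclic heifers (log2 fold change 2.95, SE 0.83, edgeR FDR 0.147). Its cyclic heifers were close to one another, and heifer 76 lay just above them. ENSBTAG00000021469 had 124 to 369 CPM in pregnant and 9.70 to 87.0 CPM in cyclic heifers, with a log2 fold change of 2.21 (SE 0.96, edgeR FDR 0.278).

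At 2 higher genes a single pregnant heifer made most of the difference. ENSBTAG00000002527 had 161, 212, 160 and 4823 CPM in pregnant heifers 73, 76, 78 and 79, against 134, 48.5, 87.0 and 64.1 CPM in cyclic heifers 3, 4, 5 and 6 (log2 fold change 3.95, SE 1.04, edgeR FDR 0.110). Without heifer 79 the log2 fold change of ENSBTAG00000002527 was 1.08. ENSBTAG00000013525 had 117, 124, 230 and 1513 CPM in pregnant heifers, against 76.7, 87.3, 67.7 and 64.1 CPM in cyclic heifers (log2 fold change 2.67, SE 0.76, edgeR FDR 0.155), and 1.06 without heifer 79. The 3 other pregnant heifers still lay above the cyclic ones at both genes. ENSBTAG00000013755, the last of the 12, had 98.7, 117, 200 and 300 CPM in pregnant heifers, against 57.5, 0, 87.0 and 0 CPM in cyclic heifers (log2 fold change 2.21, SE 0.98, edgeR FDR 0.293). Over the 12 higher genes, heifer 76 was the lowest pregnant animal at 9 and heifer 79 the highest at 9. The bred heifer without a conceptus numbered 74 lay above every cyclic heifer at 12 of these 12 genes and below every cyclic heifer at 11 of the 12 lower genes, while the 3 other heifers of its group did so at 4 to 6 and at 5 to 9 genes.

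At the 58 expressed genes where the pregnant heifers were all higher, heifer 76 was the lowest pregnant animal at 29 of them, against 28.4% of all expressed genes tested. Cyclic heifer 5 was the highest cyclic animal at 13 of these 58 (22.4%), against 31.2% of all. At the 60 where they were all lower, heifer 76 was the highest pregnant animal at 26 (43.3%), against 30.2% of all, and heifer 5 was the lowest cyclic animal at 22 (36.7%), against 32.2% of all. Heifer 76 was thus the pregnant animal nearest the cyclic group more often than over all genes on both sides, while heifer 5 was the cyclic animal nearest the pregnant group more often only on the lower side, and neither difference was tested. Without heifer 76 the number of separated genes was 274 (20.5%, against 19.8% of all genes tested), and without heifer 5 it was 259 (19.4%, against 18.4%). Leaving out any other of the 8 heifers gave 155 to 168.

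A fold change above 2 was estimated at 177 expressed genes (13.2%, against 14.1% of all genes tested), 93 higher and 84 lower in pregnant heifers. At 118 of them the groups overlapped. Without heifer 76, 48 of these 118 had separate groups, and without heifer 5, 49 did, while leaving out any other heifer separated 3 to 12. Without both, 80 of the 118 were separate. Matching counts over all genes tested were not made. Leaving out heifer 76 or 5 also raised the share separated over all genes tested, from 8.22% to 19.8% and 18.4% respectively. Heifers 76 and 5 were singled out by these same data. Results without them, here and below, therefore describe the data and are not tests. The 8 genes that follow, the 4 largest fold changes in each direction among the overlapping genes, were chosen after their values were seen. Those with few counts met the rule through the group where they were high.

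ENSBTAG00000007554 had 1372, 22.0, 629 and 659 CPM in pregnant heifers 73, 76, 78 and 79, against 28.7, 38.8, 19.3 and 0 CPM in cyclic heifers 3, 4, 5 and 6 (log2 fold change 4.84, SE 1.54, edgeR FDR 0.170). ENSBTAG00000052099 had 3534, 43.9, 2765 and 704 CPM in pregnant heifers, against 19.2, 19.4, 155 and 118 CPM in cyclic heifers (log2 fold change 4.49, SE 1.35, edgeR FDR 0.166). In both, heifer 76 lay within the range of the cyclic heifers and the other 3 pregnant heifers far above it. ENSBTAG00000030913 had 529, 51.3, 230 and 539 CPM in pregnant heifers, against 19.2, 29.1, 19.3 and 64.1 CPM in cyclic heifers (log2 fold change 3.31, SE 0.96, edgeR FDR 0.155). ENSBTAG00000012267 had 628, 22.0, 120 and 150 CPM in pregnant heifers, against 38.3, 29.1, 29.0 and 21.4 CPM in cyclic heifers (log2 fold change 2.91, SE 0.95, edgeR FDR 0.178). Heifer 76 was the only pregnant animal inside the cyclic range at all 4 of these genes. Without heifer 76 the log2 fold changes of these 4 genes, in the order given, were 5.26, 4.90, 3.68 and 3.31, with edgeR FDRs from 0.0775 to 0.104. ENSBTAG00000012267 also rested on heifer 73, without which its log2 fold change was 1.60 (edgeR FDR 0.489).

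In the other direction the heifer that differed from its group was a cyclic one. ENSBTAG00000021119 had 0, 7.32, 9.98 and 0 CPM in pregnant heifers 73, 76, 78 and 79, against 259, 427, 0 and 342 CPM in cyclic heifers 3, 4, 5 and 6 (log2 fold change -5.43, SE 1.56, edgeR FDR 0.155). ENSBTAG00000050371 had 0, 0, 29.9 and 14.98 CPM in pregnant heifers, against 192, 233, 19.3 and 321 CPM in cyclic heifers (log2 fold change -4.10, SE 1.20, edgeR FDR 0.157). At both genes cyclic heifer 5 had no more than 2 counts, as low as the pregnant heifers, while the other 3 cyclic heifers were far higher. ENSBTAG00000047299 had 17.9, 7.32, 0 and 44.9 CPM in pregnant heifers, against 182, 165, 9.67 and 481 CPM in cyclic heifers (log2 fold change -3.69, SE 1.35, edgeR FDR 0.219). ENSBTAG00000049029 had 17.9, 168, 39.9 and 30.0 CPM in pregnant heifers, against 1351, 582, 29.0 and 1112 CPM in cyclic heifers (log2 fold change -3.45, SE 1.05, edgeR FDR 0.166). Heifer 5 was the only cyclic animal inside the pregnant range at all 4 of these genes. Bred heifers 72, 74 and 75, without a conceptus, also lay below the other 3 cyclic heifers at all 4. In heifers 72, 74, 75 and 77, ENSBTAG00000021119 had 0, 11.5, 0 and 241 CPM. ENSBTAG00000050371 had 16.7, 0, 11.5 and 174 CPM, and ENSBTAG00000047299 had 16.7, 23.1, 0 and 402 CPM. ENSBTAG00000049029 had 218, 46.1, 80.8 and 904 CPM. Without heifer 5 the log2 fold changes of these 4 genes, in the order given, were -5.85, -4.49, -4.10 and -3.86, with edgeR FDRs from 0.0821 to 0.141.

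**Figure D3:**
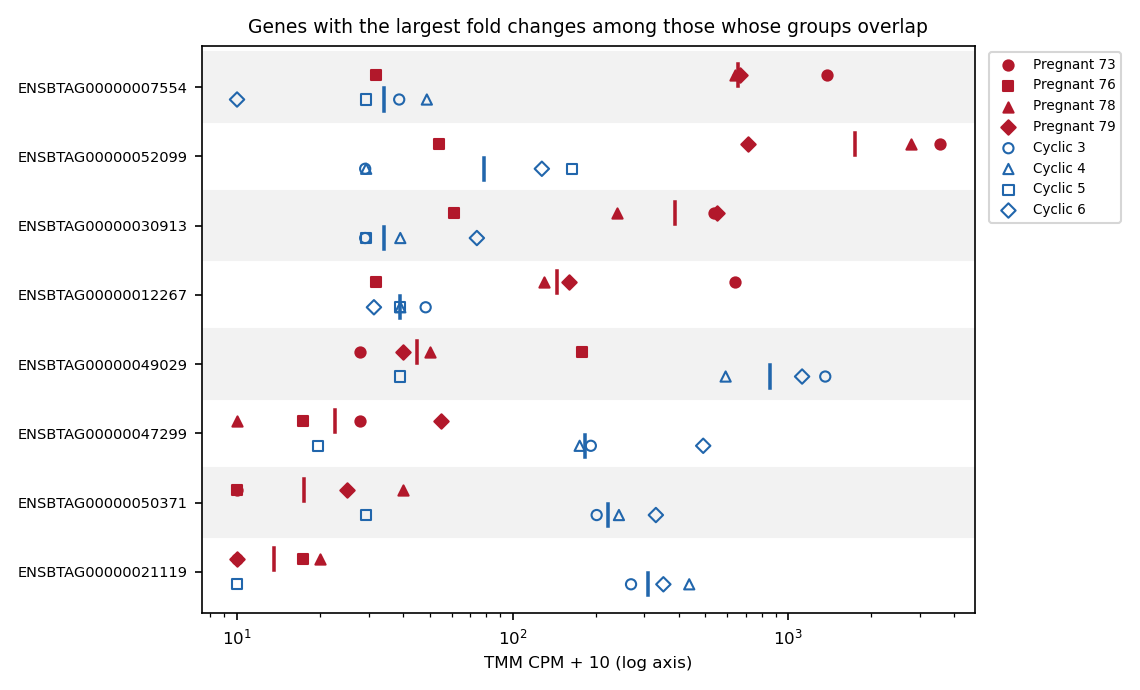
TMM-normalized CPM plus 10 on a log axis for each heifer at the 8 overlapping genes with the largest fold changes, the upper 4 with higher and the lower 4 with lower levels in pregnant heifers. Filled points are pregnant and hollow points cyclic heifers, with a vertical bar at each median. In the upper 4 genes pregnant heifer 76 sits among the cyclic heifers, for example at 22.0 CPM for ENSBTAG00000007554, and in the lower 4 cyclic heifer 5 sits among the pregnant heifers, for example at 29.0 CPM for ENSBTAG00000049029.

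Precision was best among the 181 expressed genes averaging 100 or more counts. Of these, 16 (8.84%) had a fold change above 2, 9 lower and 7 higher in pregnant heifers. The groups did not overlap at 5 of the 16, against 59 of the 177 expressed genes with a fold change above 2. A matching count over all genes tested was not made. The 16 genes were likewise chosen after their values were seen. The called genes, ENSBTAG00000004979 and ENSBTAG00000052762 are described above, and ENSBTAG00000050791 is described with the most abundant genes. ENSBTAG00000020999, whose groups did not overlap, had 789, 1369, 1078 and 1483 CPM in pregnant heifers 73, 76, 78 and 79, against 3249, 3290, 1624 and 4789 CPM in cyclic heifers 3, 4, 5 and 6 (log2 fold change -1.46, SE 0.32, edgeR FDR 0.102). ENSBTAG00000015176 had 484, 820.2, 529 and 434 CPM in pregnant heifers, against 3172, 3028, 783 and 1860 CPM in cyclic heifers (log2 fold change -1.95, SE 0.43, edgeR FDR 0.102). Its groups overlapped only because heifer 5 lay just below heifer 76. ENSBTAG00000020781 had 1085, 1040, 1378 and 1423 CPM in pregnant heifers, against 3881, 4231, 1237 and 3624 CPM in cyclic heifers (log2 fold change -1.40, SE 0.33, edgeR FDR 0.110). Here too heifer 5 was level with the pregnant heifers and the 3 other cyclic heifers were all above them. Without heifer 5 these 3 genes passed the threshold in edgeR. Their log2 fold changes were then -1.69 for ENSBTAG00000020999 (FDR 0.00983), -2.24 for ENSBTAG00000015176 (FDR 0.00974) and -1.68 for ENSBTAG00000020781 (FDR 0.00974). Heifer 5 and these genes were picked by their values, so these FDRs are a description and not support.

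ENSBTAG00000005809 had 1336, 1640, 2486 and 2067 CPM in pregnant heifers 73, 76, 78 and 79, against 10110, 9481, 309 and 23506 CPM in cyclic heifers 3, 4, 5 and 6 (log2 fold change -2.53, SE 1.04, edgeR FDR 0.264). ENSBTAG00000012193 had 861, 2497, 2296 and 2681 CPM in pregnant heifers, against 10244, 9189, 1286 and 11940 CPM in cyclic heifers (log2 fold change -1.97, SE 0.67, edgeR FDR 0.190). ENSBTAG00000053081 had 215, 1333, 289.5 and 509 CPM in pregnant heifers, against 1495, 2523, 203 and 2726 CPM in cyclic heifers (log2 fold change -1.55, SE 0.75, edgeR FDR 0.330). Cyclic heifer 5 was the lowest cyclic animal at these 3 genes and at the 3 before them, and at ENSBTAG00000005809 and ENSBTAG00000053081 it was also below every pregnant heifer. Without heifer 5 the log2 fold change was -2.94 for ENSBTAG00000005809, -2.34 for ENSBTAG00000012193 and -1.93 for ENSBTAG00000053081, with edgeR FDRs from 0.0975 to 0.173. ENSBTAG00000053081 moved more without pregnant heifer 76, to -2.38 (edgeR FDR 0.140).

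On the higher side of the well-counted genes the pregnant heifers were uneven. ENSBTAG00000046359 had 3776, 227, 2546 and 7459 CPM in pregnant heifers 73, 76, 78 and 79, against 585, 340, 483 and 513 CPM in cyclic heifers 3, 4, 5 and 6 (log2 fold change 2.86, SE 0.91, edgeR FDR 0.170). ENSBTAG00000004378 had 5077, 1172, 2326 and 3684 CPM in pregnant heifers, against 1313, 1368, 1605 and 1475 CPM in cyclic heifers (log2 fold change 1.09, SE 0.44, edgeR FDR 0.264). At both, heifer 76 lay below every cyclic heifer and the 3 other pregnant heifers above every one. ENSBTAG00000005010 had 6673, 1545, 7767 and 3939 CPM in pregnant heifers, against 1648, 1504, 2397 and 1668 CPM in cyclic heifers (log2 fold change 1.46, SE 0.55, edgeR FDR 0.227). Heifer 76 again lay among the cyclic heifers. Without heifer 76 the log2 fold change was 3.25 for ENSBTAG00000046359, 1.36 for ENSBTAG00000004378 and 1.76 for ENSBTAG00000005010, with edgeR FDRs from 0.0762 to 0.110. ENSBTAG00000051218 had 296, 1047, 2047 and 4388 CPM in pregnant heifers, against 642, 805, 648 and 748 CPM in cyclic heifers (log2 fold change 1.44, SE 0.57, edgeR FDR 0.248), and here the pregnant heifer below the cyclic ones was heifer 73. ENSBTAG00000052650 had 2467, 2021, 6808 and 10289 CPM in pregnant heifers, against 2530, 2562, 1556 and 1849 CPM in cyclic heifers (log2 fold change 1.34, SE 0.62, edgeR FDR 0.305), with heifers 73 and 76 inside the cyclic range. Both of these genes were highest in heifer 79, without which the log2 fold change was 0.67 for ENSBTAG00000051218 and 0.83 for ENSBTAG00000052650.

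The 10 most abundant expressed genes held 21.4% to 31.4% of the counts of a pregnant library and 20.1% to 24.7% of a cyclic library. ENSBTAG00000033221, the most abundant, had 71488, 86583, 126395 and 128550 CPM in pregnant heifers 73, 76, 78 and 79, against 57144, 59319, 55058 and 52058 CPM in cyclic heifers 3, 4, 5 and 6. The cyclic heifers were nearly equal and every pregnant heifer lay above them. The log2 fold change of 0.89 (SE 0.47) had an edgeR FDR of 0.387. The non-pregnant heifers, which share the estimate of spread in this fit, ranged from 25387 to 159145 CPM. On the 8 libraries compared the FDR was 0.0990 in edgeR and 0.0244 in DESeq2, where the log2 fold change of 0.84 was below 2-fold. ENSBTAG00000017475 was the other of the 10 without overlap, with 13185, 12742, 13417 and 15546 CPM in pregnant heifers, against 19128, 19369, 22822 and 19294 CPM in cyclic heifers (log2 fold change -0.55, SE 0.23, edgeR FDR 0.264). Its FDR on the 8 libraries compared was 0.150 in edgeR and 0.0290 in DESeq2. ENSBTAG00000050791 had 15993, 14383, 21813 and 75381 CPM in pregnant heifers, against 11481, 12236, 16983 and 10615 CPM in cyclic heifers (log2 fold change 1.31, SE 0.47, edgeR FDR 0.211). Its high mean came from heifer 79, without which the log2 fold change of ENSBTAG00000050791 was 0.44.

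ENSBTAG00000053346 had 27501, 17495, 35200 and 32381 CPM in pregnant heifers 73, 76, 78 and 79, against 14039, 16380, 20927 and 16740 CPM in cyclic heifers 3, 4, 5 and 6 (log2 fold change 0.73, SE 0.31, edgeR FDR 0.275). The groups overlapped through heifers 76 and 5 alone. ENSBTAG00000043546 had 7669, 37429, 11580 and 48422 CPM in pregnant heifers, against 37805, 22309, 55638 and 42811 CPM in cyclic heifers (log2 fold change -0.59, SE 0.49, edgeR FDR 0.630). It varied more than 6-fold among the pregnant heifers. The remaining 5 of the 10, ENSBTAG00000050597, ENSBTAG00000005796, ENSBTAG00000007077, ENSBTAG00000001014 and ENSBTAG00000016095, had log2 fold changes of 0.14, -0.19, 0.82, 0.18 and 0.73 and edgeR FDRs from 0.406 to 0.828.

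**Figure D4:**
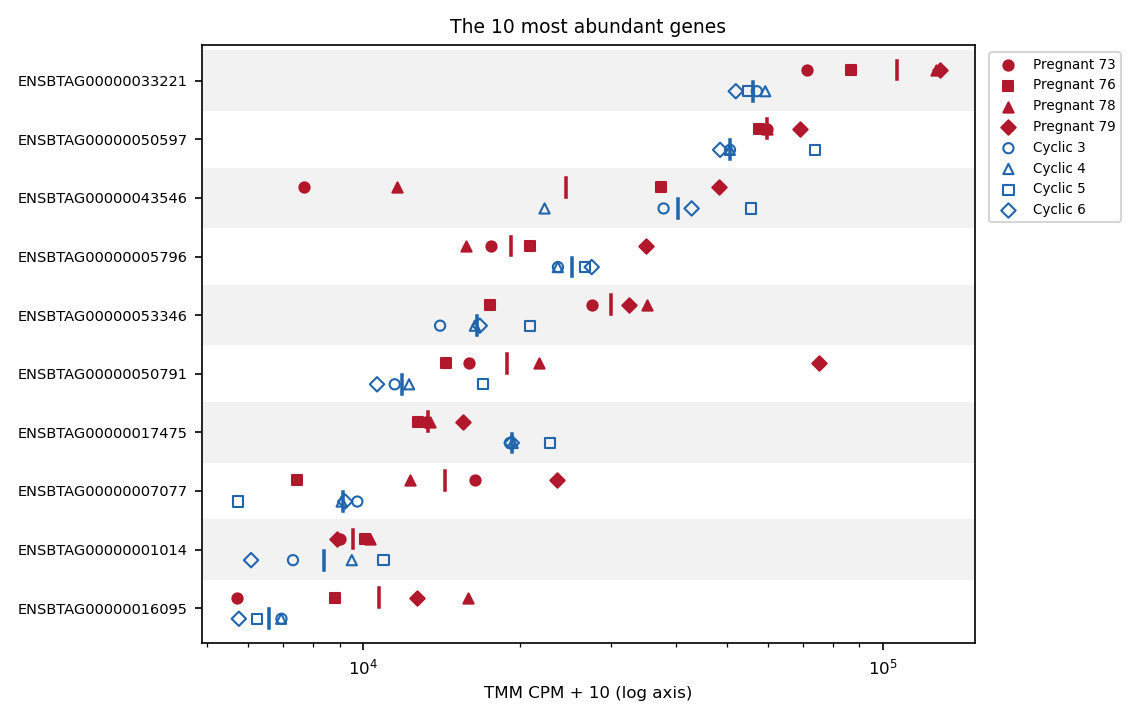
TMM-normalized CPM plus 10 on a log axis for each heifer at the 10 most abundant expressed genes, with filled points for pregnant and hollow points for cyclic heifers and a vertical bar at each median. Only ENSBTAG00000033221 (higher in pregnant heifers) and ENSBTAG00000017475 (lower in pregnant heifers) have groups that do not overlap, and the pregnant heifers range from 7669 to 48422 CPM at ENSBTAG00000043546 and from 14383 to 75381 CPM at ENSBTAG00000050791.

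The 5 genes with the smallest standard errors had the narrowest intervals in these libraries. They were picked by those standard errors, so their narrow intervals follow from the pick and are not typical. The median standard error over the 1337 expressed genes tested was 0.38. ENSBTAG00000002718 averaged 5249 ± 328 CPM in pregnant and 5485 ± 355 CPM in cyclic heifers (SD, n = 4 each), with a log2 fold change of -0.06 (95% interval -0.43 to 0.30). ENSBTAG00000014719 averaged 2216 ± 176 CPM in pregnant and 2042 ± 116 CPM in cyclic heifers, with a log2 fold change of 0.12 (95% interval -0.25 to 0.49). A 2-fold difference lay outside the interval for both. The intervals of ENSBTAG00000020944 (0.20, from -0.19 to 0.59), ENSBTAG00000007160 (0.25, from -0.13 to 0.63) and ENSBTAG00000010805 (-0.22, from -0.61 to 0.18) also included 0 and stayed within 2-fold. The groups of ENSBTAG00000007160 (3581 to 4508 CPM in pregnant, 3089 to 3528 CPM in cyclic heifers) and of ENSBTAG00000010805 (2440 to 2845 CPM in pregnant, 2897 to 3670 CPM in cyclic heifers) did not overlap, so groups without overlap also occurred at small differences.

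Of the expressed genes, 20 failed the filter on low counts. A single library held 28.3% to 99.5% of a gene's counts over the 8 libraries and at least 50% at 8 of the 20 genes, while 12 had counts in all 8 libraries. ENSBTAG00000053654 was the extreme, with 184 counts in pregnant heifer 73 out of 185. ENSBTAG00000050478 had 0 counts in all 4 pregnant libraries and 33, 2, 6 and 41 counts in cyclic heifers 3, 4, 5 and 6. A count of 0 over the pregnant group allows up to 3 counts or 7.23 CPM. Against the 203 CPM of the pooled cyclic libraries this gives a bound of 28.0-fold, which covers counting error only. The pooled value rests mostly on cyclic heifers 3 and 6, and the bound does not hold against heifer 4 or 5 alone. This gene met the rule through its cyclic counts alone and was picked after its values were seen, so the bound is a description. Cyclic heifer 5 was again the low one at several of these genes: ENSBTAG00000015724 had 2, 1, 1 and 1 counts in pregnant heifers 73, 76, 78 and 79, against 25, 31, 0 and 29 counts in cyclic heifers 3, 4, 5 and 6. ENSBTAG00000008089 had 1, 5, 4 and 2 counts in pregnant heifers, against 33, 16, 1 and 32 counts in cyclic heifers. ENSBTAG00000002980 was among the more evenly counted ones, with 31, 10, 20 and 15 counts in pregnant heifers, against 5, 3, 3 and 5 counts in cyclic heifers. These 20 genes entered the DESeq2 fits and the edgeR fits without the filter or with all expressed genes, but have no value in the edgeR fit used here.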

How the data were processed

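Counts were those the authors deposited, as raw reads per Ensembl gene without normalization. Per the study's methods, stranded single-end mRNA libraries were cleaned with Prinseq, aligned to ARS-UCD 1.2 with HISAT2, sorted with SAMtools and counted with htseq-count. Its strand setting is not given in the sources used here, so overlapping and antisense genes are uncertain, and a setting opposite to the kit's would affect all genes. The authors' tables of their own comparisons (fold changes and p-values) were not used.

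Genes were kept by filterByExpr (in at least 4 libraries, the CPM to which 10 counts amount in a library of median size, and a total of at least 15 counts), normalized by TMM and fitted with 3 groups in 12 libraries by edgeR 4.0.16 (quasi-likelihood test, Benjamini-Hochberg over 1606 genes) in R 4.3.3. The biological coefficient of variation was 0.400. Calls needed an FDR below 0.05 together with a fold change over 2. The standard error is the log2 fold change divided by the root of F. For correlations, log2 CPM had a prior count of 2. DESeq2 1.42.0, limma 3.58.1 and other alternatives were run. No pair of libraries of a group was a duplicate (chi-square divided by its degrees of freedom was at least 3.18). The floor for a count of 0 covers counting error only.

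The genes named are those called, the 12 furthest in each direction among genes whose groups do not overlap, the 10 most abundant and the 5 most precise. Added after their values were seen were the 4 largest fold changes in each direction among overlapping genes, the genes averaging 100 or more counts with a fold change above 2, and examples at the threshold of the rule and among genes failing the filter. Lists of pathway and cell type symbols could not be applied. Genes, lists and rules were chosen with earlier results of these data known.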

Additional observations from a re-analysis of the deposited data

Results flagged for a closer look

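Of 122 groups of 4 values examined for a single heifer far from the rest of its group, 13 had one. A number of about 6.1 expected by chance holds for independent groups not chosen by their values. Many of the genes examined were chosen by their values, so no conclusion is drawn from the difference. Pregnant heifer 79 had 7485 genes with a count, against 8816 to 9069 in the other pregnant heifers. It also had 4823 CPM of ENSBTAG00000002527 (160 to 212 in the other 3), 1513 CPM of ENSBTAG00000013525 (117 to 230) and 75381 CPM of ENSBTAG00000050791 (14383 to 21813). Pregnant heifer 76 had 1413 CPM of ENSBTAG00000030648 (659 to 744 in the other 3) and 168 CPM of ENSBTAG00000049029 (17.9 to 39.9).

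Among cyclic heifers, heifer 6 had 342 CPM of ENSBTAG00000005073 (135 to 155 in the other 3) and 620.0 CPM of ENSBTAG00000005478 (116 to 163). Heifer 5 had 73936 CPM of ENSBTAG00000050597 (48562 to 50733), 22822 CPM of ENSBTAG00000017475 (19128 to 19369) and 5732 CPM of ENSBTAG00000007077 (9073 to 9727). Heifer 3 had 1869 CPM of ENSBTAG00000014719 (2084 to 2115) and 3670 CPM of ENSBTAG00000010805 (2897 to 3006).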

How the results depend on the processing

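The count of calls depended on the setting, and the number of genes tested also differed. It was 1606 in the main fit, 1317 with edgeR on 8 libraries and 14853 with DESeq2 on 8. With DESeq2 on 12 libraries and without a filter it was 15896, and 1357 with only genes averaging 10 or more counts. Against 3 genes called among all genes tested and 2 among expressed genes, the counts were 0 and 0 with library totals alone, 38 and 35 with DESeq2 on 12 libraries, 75 and 63 with DESeq2 on 8, 1 and 1 with limma-voom, 7 and 7 with edgeR on 8 libraries, 156 and 89 without a filter, and 0 and 0 when only genes with a mean of 10 counts were tested. Leaving out 1 heifer gave 0 to 37 genes called (0 to 42 with genes filtered again) and 0 to 34 expressed genes called. Leaving out pregnant heifer 76 and non-pregnant heifer 74 together, added after seeing the data like the non-pregnant heifers in turn, gave 67 and 62 calls and 274 separated genes. Expressed genes at an unadjusted p under 0.05 numbered 153 to 264 with 1 heifer left out, and separated genes 155 to 274. With 1 heifer left out, the difference in library totals (pregnant minus cyclic) ranged from -1929 to 16943 counts, in genes with a count from -107 to 421, and in the share of counts in expressed genes from -0.0458 to 0.984 percentage points. Over the named genes no alternative reversed a log2 fold change. Most of these genes were chosen for large fold changes or for groups without overlap, so this is no test of direction. The causes of the dependence on the setting were not tested. No paired analysis was possible because no heifer number occurs in both groups. Genes with few counts were measured imprecisely, since 1 count was worth up to 14.98 CPM.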
